A study of Mus musculus with 20 samples.

Results

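The proteasome genes described here are the 44 genes whose symbol in the platform annotation starts with Psma, Psmb, Psmc, Psmd or Psme followed by a number, out of 18193 genes with a probe set of their own. They comprise 7 subunits of the alpha ring, 4 non-catalytic and 3 constitutive catalytic subunits of the beta ring, 3 catalytic subunits of the immune form, 6 ATPases and 11 non-ATPases of the regulatory particle, 3 activators, 3 assembly chaperones and 2 tissue-restricted subunits. The remaining 2, Psmc3ip and Psme3ip1, carry such a symbol but encode proteins named as partners of subunits, and not subunits. Of the 44, 42 passed the filter on low values (at least 2 arrays above a log2 value of 5), and Psmb11 and Psmd7 did not. Psme2, the partner of Psme1, shared its probe set with another symbol and is not analysed here.

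RNA of sorted blood cells of wild-type C57Bl/6 mice, labelled as female, CD45.1 and 12 to 14 weeks old, was measured on 20 Affymetrix mouse arrays, 2 for each of 10 cell types. The cell types were CD4 T cells and CD8 T cells that the labels call activated by lipopolysaccharide (LPS), the long-term stem cells of the blood (LT-HSC), B cells, natural killer (NK) cells, monocytes, granulocytes, nucleated erythrocytes (red cell precursors that still have a nucleus), naive CD4 T cells and naive CD8 T cells. Each array held material pooled from 4 samples, with 25000 to 50000 cells sorted and the RNA amplified in 2 rounds of in vitro transcription, so a p-value measures the spread between pools and not between single mice. Values are log2 GCRMA expression values, SD and SE are on that scale, and every group has n = 2 arrays.

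The proteasome is the barrel-shaped protease that degrades proteins marked with ubiquitin. Its core is built of alpha rings, which gate the entrance, and beta rings, which hold the active sites, and a regulatory particle of ATPases and non-ATPases at the ends recognises, unfolds and feeds in the substrates. In lymphocytes, and in many cells under interferon gamma, the catalytic subunits Psmb5, Psmb6 and Psmb7 are replaced by Psmb8, Psmb9 and Psmb10. This immune form cuts proteins into peptides that suit display on MHC class I molecules, after transport into the endoplasmic reticulum by Tap1 and Tap2.

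Across the 9810 genes tested, the 2 arrays of a type correlated at 0.945 (monocytes) to 0.988 (B cells). The labelled types carried most of their markers, with these exceptions. The Cd4 probe set used was flat, at 3.32 to 4.35 in all arrays. Of 5 monocyte markers measured, 3 were highest in monocytes. Among these Cx3cr1 was nearly flat, with means of 4.77 to 5.36 in all types. Csf1r averaged 13.83 in monocytes and 12.74 in granulocytes. The mean of 7 granulocyte markers was 10.97 and 12.16 in the nucleated erythrocyte arrays and 8.66 and 8.84 in the monocyte arrays, against 13.58 and 13.74 in granulocytes and at most 4.98 elsewhere. The mean of 4 platelet markers was 4.26 and 6.46 in the LT-HSC arrays and 5.97 and 6.11 in the nucleated erythrocyte arrays, against at most 3.74 elsewhere. Of the erythroid markers Hba-a1 was flat, with means of 2.55 to 2.67 in all types. Cd69, listed for activated T cells, averaged 11.26 and 11.52 in naive CD4 and CD8 T cells, against 12.54 and 12.53 in activated ones. The mean of 4 B cell markers was 4.09 to 4.80 in naive CD4 and 5.26 to 5.38 in naive CD8 arrays, against 3.24 to 4.34 in activated arrays. That of the monocyte markers was 4.90 to 5.26 and 4.49 to 4.63, against 3.47 to 3.81 in activated arrays. The Y-linked genes Eif2s3y and Kdm5d lay between 7.71 and 12.84 in the 4 activated T cell arrays and in the naive T cell arrays numbered 1, and at most at 3.45 in the other 14 arrays, although the labels give female mice.

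The genes of the constitutive proteasome followed a common course over the cell types. A core set was formed of 30 genes: the alpha ring, Psmb1 to Psmb7, the ATPases and the 10 tested non-ATPases. After each gene was centred on its own mean over the 20 arrays, the median of these 30 was 1.31 and 1.44 in activated CD4 T cells and 1.42 and 1.44 in activated CD8 T cells, against -0.40 and 0.05 in naive CD4 T cells and 0.18 and 0.22 in naive CD8 T cells. It was -1.39 and -1.26 in monocytes and -0.68 and -0.53 in LT-HSC. NK cells, B cells and granulocytes lay between -0.325 and -0.013. The nucleated erythrocyte arrays were farther apart, at 0.23 and -0.47. The arrays of both activated T cell groups were thus above every other array, and the monocyte arrays were below every other array.

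Correlation of each core gene with the mean of the other 29 over the 10 cell type means had a median of 0.914. It was highest for the ATPase Psmc1 at 0.984 and lowest for Psmd1, a scaffold of the regulatory particle, at 0.398. The immune subunits stood outside this course, with 0.287 for Psmb8, 0.200 for Psmb9 and 0.226 for Psmb10 against the 30 core genes. The chaperone Psmd9 gave -0.226. These are descriptions over 10 points that share arrays and normalization, and carry no test.

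**Figure D1:**
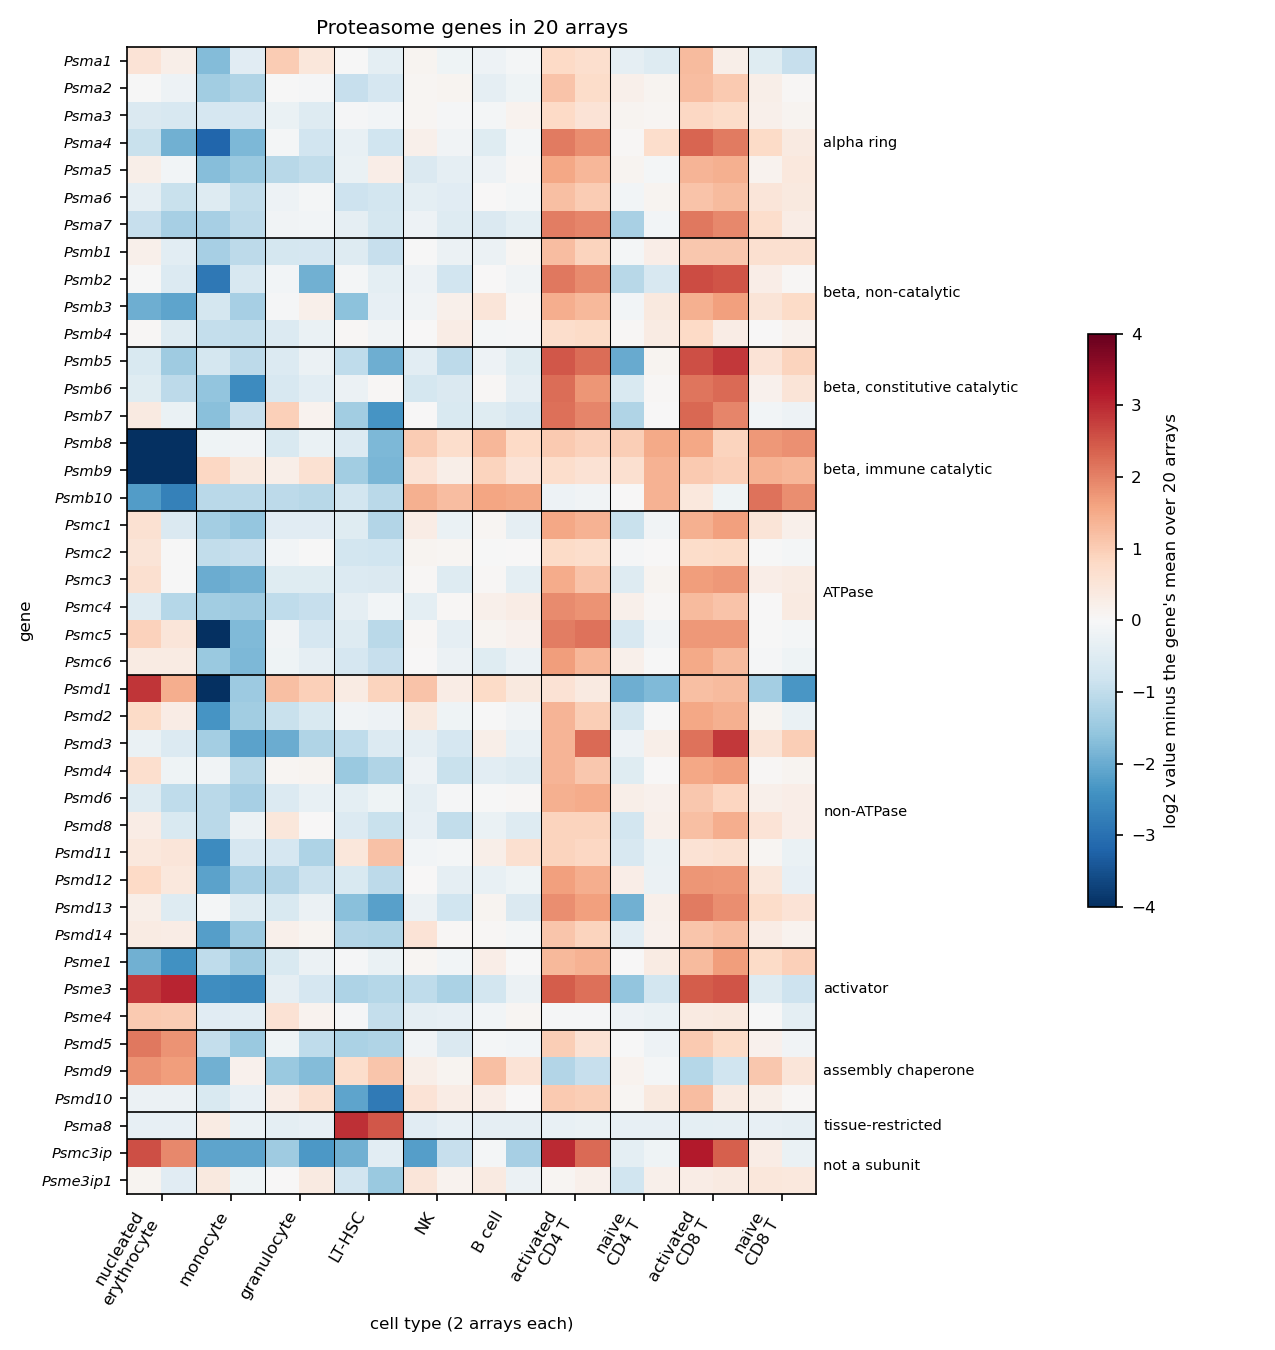
Heat map of the 42 proteasome genes tested (rows, grouped by role) in the 20 arrays (columns, 2 for each cell type). Colour is the log2 value minus the gene's mean over the 20 arrays, and values beyond 4 in size are drawn at the end of the scale. Most rows are red in activated T cells and blue in monocytes, while Psmb8, Psmb9 and Psmb10 are darkest blue in nucleated erythrocytes.

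All 42 genes differed among the 10 cell types (limma's moderated F test, adjusted p under 0.05), as did 94.3% of the genes tested, so this count does not set them apart. Of the 42, 24 had their highest mean in activated CD8 T cells and 8 in activated CD4 T cells, where 17.0% and 6.68% of all genes tested peaked. Monocytes held the lowest mean of 25 members and LT-HSC that of 10, against 20.6% and 13.3% of all genes. The widest ranges over the cell type means within the role groups were those of Psma4 (4.69), Psmb2 (4.32), Psmb8 (7.19), Psmc5 (4.98), Psmd1 (5.28), Psme3 (5.46) and Psmd10 (3.49). The narrowest were those of Psma3 (1.46), Psmb4 (1.72), Psmb10 (4.49 within the immune subunits), Psmc2 (1.70) and Psme4 (1.54).

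The catalytic subunits are taken first, since the constitutive and immune forms are alternatives for the same 3 places in the beta ring. Psmb8 and Psmb9 lie within the MHC region of chromosome 17 (GRCm38.p6, 34198195 to 34201454 and 34182030 to 34187330). Psmb10 lies on chromosome 8, Psmb5 on chromosome 14, Psmb6 on chromosome 11 and Psmb7 on chromosome 2. The bases just upstream of 3 of these genes are shown because their genes represent the different courses described next: Psmb5 of the constitutive course, Psmb8 of the immune course, and Psmb9, whose start faces that of the peptide transporter Tap1 across 225 bases. They are RefSeq sequences of GRCm38.p6, written 5′ to 3′ on the strand of the gene and ending at the base before its start. Capitals mark matches to the motifs named after them.
Psmb5 (chr14:54617996-54618245, minus strand): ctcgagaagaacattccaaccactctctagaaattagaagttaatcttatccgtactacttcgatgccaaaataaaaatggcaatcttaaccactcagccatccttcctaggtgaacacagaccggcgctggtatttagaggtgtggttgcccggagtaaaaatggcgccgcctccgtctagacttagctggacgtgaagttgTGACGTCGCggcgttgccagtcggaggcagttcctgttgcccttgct
Psmb8 (chr17:34197945-34198194, plus strand): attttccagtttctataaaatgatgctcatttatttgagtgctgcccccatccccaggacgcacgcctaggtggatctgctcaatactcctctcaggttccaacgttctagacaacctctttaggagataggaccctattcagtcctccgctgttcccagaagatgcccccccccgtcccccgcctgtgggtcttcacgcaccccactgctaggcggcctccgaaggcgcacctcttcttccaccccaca
Psmb9 (chr17:34187331-34187555, minus strand, all bases between the starts of Psmb9 and Tap1): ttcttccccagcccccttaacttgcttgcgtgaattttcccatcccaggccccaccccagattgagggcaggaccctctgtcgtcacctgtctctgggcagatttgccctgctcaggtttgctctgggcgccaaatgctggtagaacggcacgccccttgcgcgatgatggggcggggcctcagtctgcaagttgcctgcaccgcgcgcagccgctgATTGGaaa

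Motifs were searched on both strands in the 250 bases upstream of the start that the RefSeq promoter table gives, for 37 member genes that matched it. That start can lie inside the span of the gene record, as for Psmb6. TGACNNNGC, the core of the antioxidant response element that NRF factors bind, was found in 5 genes (13.5%), against 10.2% of 32851 windows of all genes. Psmb5 had it as TGACGTCGC. CCAAT, the box bound by NF-Y, was found in 16 genes (43.2%), against 33.8% of all windows, and Psmb9 had it on the opposite strand as ATTGG. Neither motif was found in the printed window of Psmb8. A match is a description of letters, and none of these shares was tested.

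The constitutive catalytic subunits were highest in activated T cells. Psmb5, the chymotrypsin-like subunit, read 11.61 and 11.36 in activated CD4 T cells and 11.71 and 11.94 in activated CD8 T cells, against 7.12 and 9.22 in naive CD4 T cells and 9.67 and 10.00 in naive CD8 T cells. In the other types it lay between 7.17 (LT-HSC) and 8.91 (B cells). No array outside the activated T cells exceeded 10.00, and the naive CD4 arrays were the farthest apart (SD 1.49).
Psmb6, the caspase-like subunit, read 12.92 and 12.44 in activated CD4 T cells and 12.83 and 12.94 in activated CD8 T cells, against 10.08 and 10.73 in naive CD4 T cells and 10.85 and 11.20 in naive CD8 T cells. Monocytes were lowest for Psmb6, at 9.11 and 8.16. Psmb7, the trypsin-like subunit, read 11.42 and 11.16 in activated CD4 T cells and 11.50 and 11.15 in activated CD8 T cells, against 8.0 and 9.21 in naive CD4 T cells and 9.1 and 9.0 in naive CD8 T cells. LT-HSC were lowest for Psmb7, at 7.82 and 6.86.

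In the order of means, activated CD8 T cells came first and activated CD4 T cells second for each of Psmb5, Psmb6 and Psmb7, and these neighbours did not differ beyond their spread (limma, adjusted p = 0.995 for each). The step from activated CD4 T cells to the next type passed the test for all 3: 1.65 to naive CD8 T cells for Psmb5 (adjusted p = 0.0303), 1.66 to naive CD8 T cells for Psmb6 (adjusted p = 0.00212) and 1.54 to granulocytes for Psmb7 (adjusted p = 0.00919). Below that step, neighbours did not pass for Psmb5 or Psmb7. For Psmb6 a further step passed, from nucleated erythrocytes down to monocytes (1.29, adjusted p = 0.00479).

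The immune subunits had another order. Psmb8 read 4.80 and 5.49 in nucleated erythrocytes and 10.01 and 8.76 in LT-HSC, and between 9.93 and 12.37 in every other array. Psmb9 read 5.68 and 5.45 in nucleated erythrocytes and 8.71 and 8.26 in LT-HSC, and between 10.33 and 11.50 in the other 8 types. For both genes the erythrocyte arrays were below all others and naive CD8 T cells had the highest mean (12.33 ± 0.06 for Psmb8 and 11.46 ± 0.06 for Psmb9, SD).
Psmb10 was graded more finely. It read 7.86 and 7.90 in activated against 8.08 and 9.44 in naive CD4 T cells, and 8.47 and 7.88 in activated against 10.21 and 9.91 in naive CD8 T cells. B cells read 9.63 and 9.56, NK cells 9.46 and 9.27 and LT-HSC 7.32 and 6.96. By mean, naive CD8 T cells, B cells and NK cells came first, although the second naive CD4 array lay above the second NK array. Monocytes (6.98 and 6.97) and granulocytes (6.99 and 6.95) were nearly level, and nucleated erythrocytes were lowest at 5.81 and 5.34.

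The step from LT-HSC down to nucleated erythrocytes was 4.24 for Psmb8 (limma, adjusted p = 6.97e-07) and 2.92 for Psmb9 (adjusted p = 1.21e-06). For Psmb8 the step from NK cells down to monocytes also passed (1.02, adjusted p = 0.0404). For Psmb9 the step from NK cells down to LT-HSC also passed (2.01, adjusted p = 7.23e-05), and the 8 types above it formed a sequence in which no neighbours passed the test. For Psmb10 the lowest step, from granulocytes to nucleated erythrocytes, was 1.40 (adjusted p = 0.00429).

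**Figure D2:**
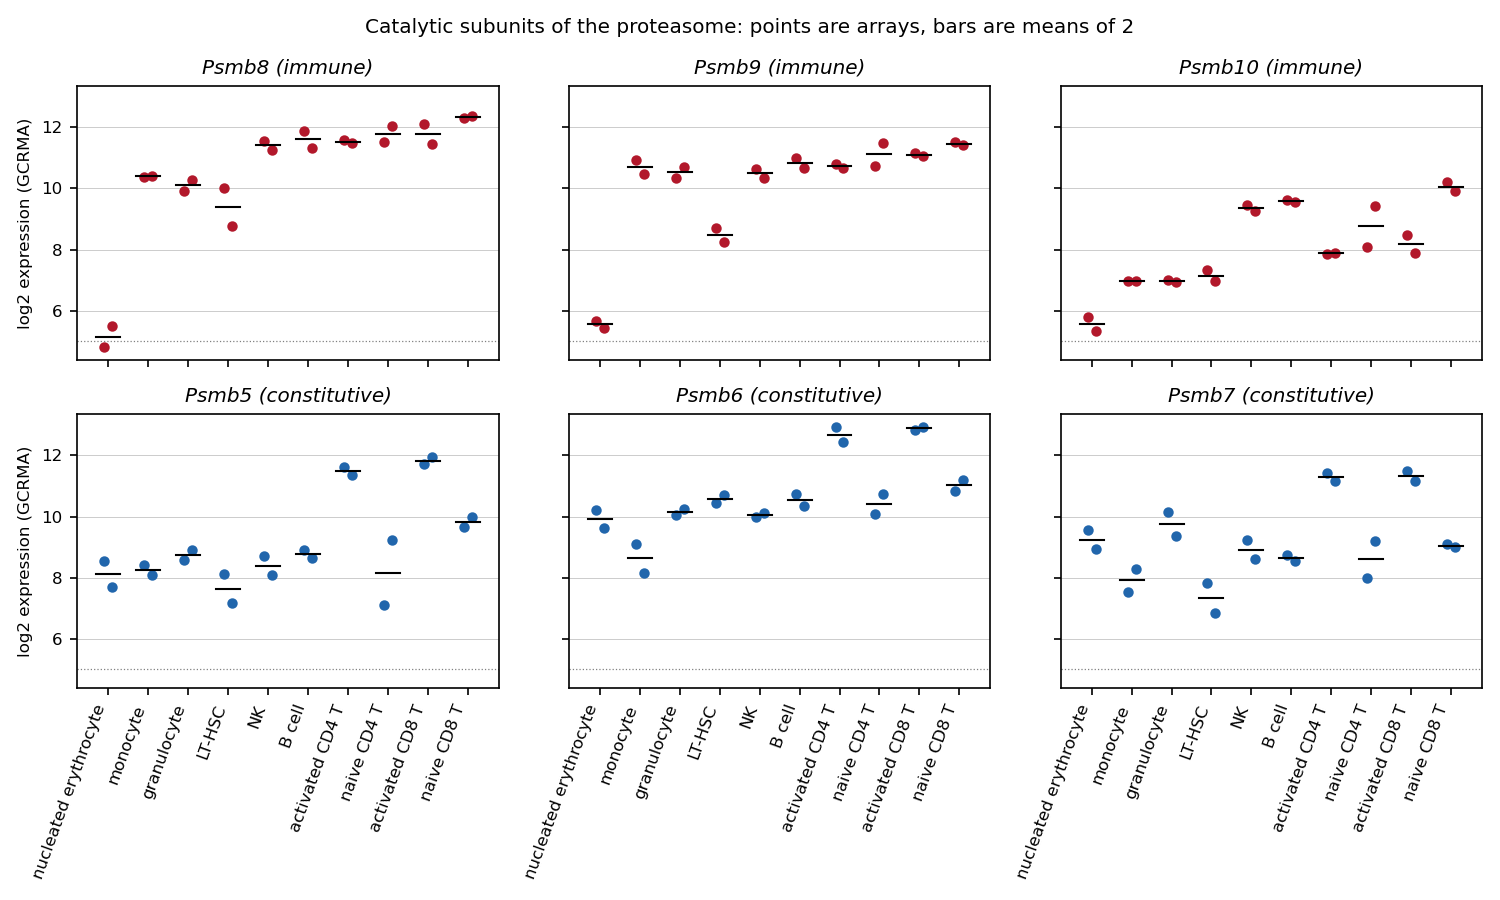
Log2 expression of the 3 immune (upper row) and 3 constitutive (lower row) catalytic subunits in each of the 20 arrays. Points are arrays, bars are means of 2 and the dotted line is the log2 value of 5 used as the limit for low values. Psmb8 and Psmb9 fall to that limit in nucleated erythrocytes, and Psmb5, Psmb6 and Psmb7 are highest in activated T cells.

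Within an array, the mean of Psmb8, Psmb9 and Psmb10 minus the mean of Psmb5, Psmb6 and Psmb7 gives an immune minus constitutive difference. Probe sets have no common scale, so it can be compared between cell types but does not say which form is more abundant. It was -1.91 and -1.64 in activated CD4 T cells against 1.71 and 1.27 in naive CD4 T cells, and -1.44 and -1.88 in activated CD8 T cells against 1.46 and 1.17 in naive CD8 T cells. B cells averaged 1.35 ± 0.02, NK cells 1.30 ± 0.08 and monocytes 1.09 ± 0.02 (SD, n = 2). LT-HSC averaged -0.19 ± 0.10, granulocytes -0.35 ± 0.23 and nucleated erythrocytes -3.67 ± 0.47. From the highest mean, 1.49 ± 0.31 in naive CD4 T cells, to the lowest the difference spanned 5.16, beside a pooled SD of 0.239 within types.

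Its parts differed between the groups. In activated T cells the immune mean was 10.05 (CD4) and 10.35 (CD8) against 10.55 and 11.28 in the naive cells, while the constitutive mean was 11.82 and 12.01 against 9.06 and 9.97. In nucleated erythrocytes the immune mean was 5.43 and the constitutive mean 9.10. In monocytes the matched pairs diverged: Psmb9 minus Psmb6 was 1.82 and 2.32, higher than in any other array, whereas Psmb10 minus Psmb7 was -0.55 and -1.33, below B, NK and naive T cells. In granulocytes Psmb8 minus Psmb5 was 1.35 and 1.39 and Psmb10 minus Psmb7 was -3.16 and -2.41.

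**Figure D3:**
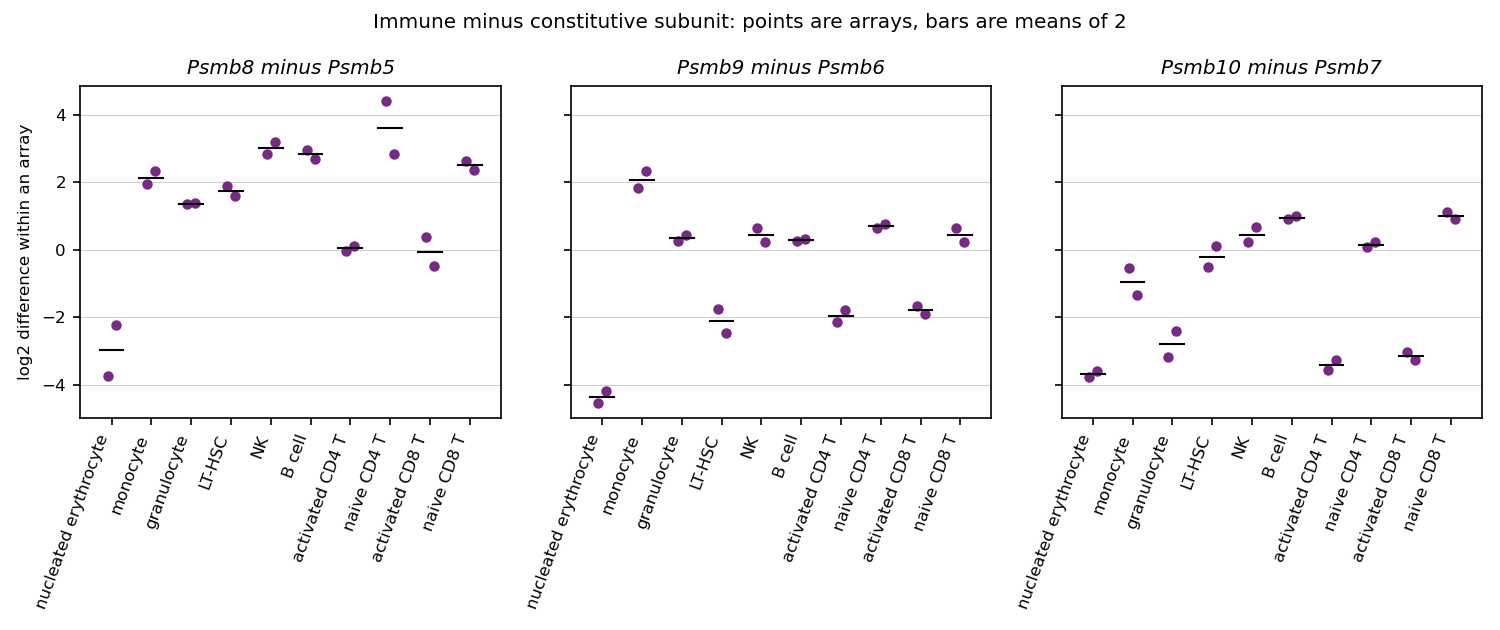
Log2 difference within each array between the immune subunit and the constitutive subunit it replaces, for the 3 pairs. Points are arrays and bars are means of 2. Nucleated erythrocytes are lowest in each panel, and activated T cells lie below naive T cells in each panel.

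The activation comparison set the T cells labelled as LPS-treated against naive T cells of the same lineage. A gene was called when the adjusted p of limma's test over the 9810 genes was under 0.05 and the log2 difference was at least 1 in size. In CD4 T cells 28 of the 42 members were called higher and 0 lower (37 had an unadjusted p under 0.05), where 14.9% of all genes tested were called higher and 18.2% lower. In CD8 T cells 20 were called higher and 2 lower, where 14.4% of all genes were called higher and 15.7% lower. The median difference of the members was 1.29 in CD4 and 1.01 in CD8 T cells, and that of all genes tested was 0.02 and -0.02.

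By role, the non-ATPases of the regulatory particle were called higher in 10 of 10 in CD4 and 5 of 10 in CD8 T cells, and the ATPases in 5 of 6 in each. The alpha ring was called in 5 of 7 and 4 of 7, and the non-catalytic beta subunits in 2 of 4 and 1 of 4. The 3 constitutive catalytic subunits were called higher in both lineages. Their differences in CD4 T cells were 3.32 ± 0.54 for Psmb5, 2.28 ± 0.34 for Psmb6 and 2.69 ± 0.45 for Psmb7 (SE, limma adjusted p between 1.92e-04 and 4.51e-04). In CD8 T cells they were 1.99 ± 0.54, 1.86 ± 0.34 and 2.28 ± 0.45 (adjusted p between 0.00101 and 0.0118). The Psmb5 call in CD4 T cells was not made when only the groups compared were fitted (naive CD4 SD 1.49). In CD8 T cells the Psmb5 call was lost without the first naive array or without the second activated array (1.83 to 1.88).

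None of the immune subunits was called higher. Psmb8 differed by -0.26 ± 0.39 in CD4 T cells (SE, limma adjusted p = 0.695) and by -0.56 ± 0.39 in CD8 T cells (adjusted p = 0.309), and Psmb9 by -0.39 ± 0.28 (adjusted p = 0.332) and -0.36 ± 0.28 (adjusted p = 0.389). Psmb10 fell by 1.89 ± 0.36 in CD8 T cells (adjusted p = 0.00136). In CD4 T cells Psmb10 differed by -0.88 ± 0.36 (adjusted p = 0.0724), and by -1.56 with a call when the first naive CD4 array, at 8.08, was left out.

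Among all members the largest difference was that of Psme3, the nuclear activator PA28 gamma. It read 11.68 and 11.45 in activated against 7.66 and 8.5 in naive CD4 T cells, and 11.67 and 11.75 in activated against 8.73 and 8.43 in naive CD8 T cells. The difference was 3.49 ± 0.28 in CD4 (11.2-fold, limma adjusted p = 1.86e-06) and 3.13 ± 0.28 in CD8 T cells (adjusted p = 4.38e-06). Psme1, the interferon-inducible activator subunit PA28 alpha, rose by 1.17 ± 0.25 in CD4 T cells (adjusted p = 0.00267) and differed by 0.60 ± 0.25 in CD8 T cells (adjusted p = 0.0896). Psme4, which encodes the activator PA200, differed by 0.19 and 0.58 and was called in neither lineage.

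Psmb2, a non-catalytic beta subunit, read 8.95 and 8.74 in activated against 5.74 and 6.22 in naive CD4 T cells, and 9.46 and 9.37 in activated against 7.10 and 6.89 in naive CD8 T cells. It rose by 2.87 ± 0.61 in CD4 T cells (limma adjusted p = 0.00247) and by 2.42 ± 0.61 in CD8 T cells (adjusted p = 0.00818). Psmd1 rose by 3.07 ± 0.79 in CD8 T cells (adjusted p = 0.00869), with 9.41 and 9.46 in activated against 6.86 and 5.88 in naive cells, and by 2.32 ± 0.79 in CD4 T cells (adjusted p = 0.0331). Without the second naive CD8 array the CD8 calls of Psmb2 and Psmd1 were lost, at differences of 2.32 and 2.58. At the other end of the called subunits, several alpha and beta subunits with small ranges were not called: Psma3 differed by 0.59 in CD4 and 0.63 in CD8 T cells, and Psmb4 by 0.55 and 0.46.

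The 3 assembly chaperones, which guide the ATPase ring together, were not called higher in either lineage. Psmd5 differed by 0.89 in CD4 and 0.88 in CD8 T cells, and Psmd10 by 0.79 and 0.66. Psmd9 fell by 1.75 ± 0.50 in CD8 T cells (limma adjusted p = 0.0149), with 7.45 and 7.79 in activated against 9.66 and 9.08 in naive cells, and differed by -1.08 ± 0.50 in CD4 T cells (adjusted p = 0.107). Another Psmd9 probe set ran the other way, with 6.53 and 6.80 in activated against 4.85 and 4.85 in naive CD8 T cells, and was called higher. With the mean over its probe sets Psmd9 differed by 0.02 in CD8 T cells, so its direction depends on the probe set. The lower call was also lost without the first naive CD8 or the first activated CD8 array (-1.58 to -1.46).

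The filter left out Psmd7, a non-ATPase of the lid, because its brightest probe set was flat at 4.39 to 4.68. Another Psmd7 probe set read 6.53 and 6.41 in activated against 3.56 and 3.63 in naive CD4 T cells, and 6.74 and 6.98 in activated against 3.84 and 4.79 in naive CD8 T cells. Psmc3ip, a recombination factor and not a subunit, rose by 2.89 ± 0.58 in CD4 (limma adjusted p = 0.00157) and 2.78 ± 0.58 in CD8 T cells (adjusted p = 0.0024). On its more specific probe set the CD4 call of Psmc3ip was not made (0.90). Without the 2 genes that are not subunits, 27 and 19 members were called higher.

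The CD8 difference minus the CD4 difference was tested for each gene. No member passed (0 of 42, and 1 at an unadjusted p under 0.05, limma), where 0.326% of all genes tested were called higher and 0.336% lower. The members' values of this difference ran from -1.33 to 0.75. The probe set for the 5′ end of Gapdh, which depends on RNA integrity and on the level of the gene, read 7.42 to 8.81 in the activated arrays. It read 3.89 to 4.45 in the naive arrays. The Gapdh probe set for the 3′ end read 14.66 to 15.08 in the activated against 13.07 to 13.58 in the naive arrays, and the 5′ probe set of actin 3.94 to 5.55 against 3.57 to 3.89. Granulocyte arrays also read high at the 5′ probe sets, with 8.26 and 8.23 for Gapdh and 9.15 and 7.59 for actin. The part of RNA integrity in the activation and granulocyte comparisons was not tested. Like the activated arrays, 1 naive array per lineage carried the Y-linked signal, and the other did not. The median of the core genes was -0.40 (CD4) and 0.22 (CD8) in the naive arrays with it, and 0.05 and 0.18 without it. The part of this signal in the comparison was not tested. Nor was the part of other cells in the naive arrays, which read higher for B cell and monocyte markers than the activated arrays.

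**Figure D4:**
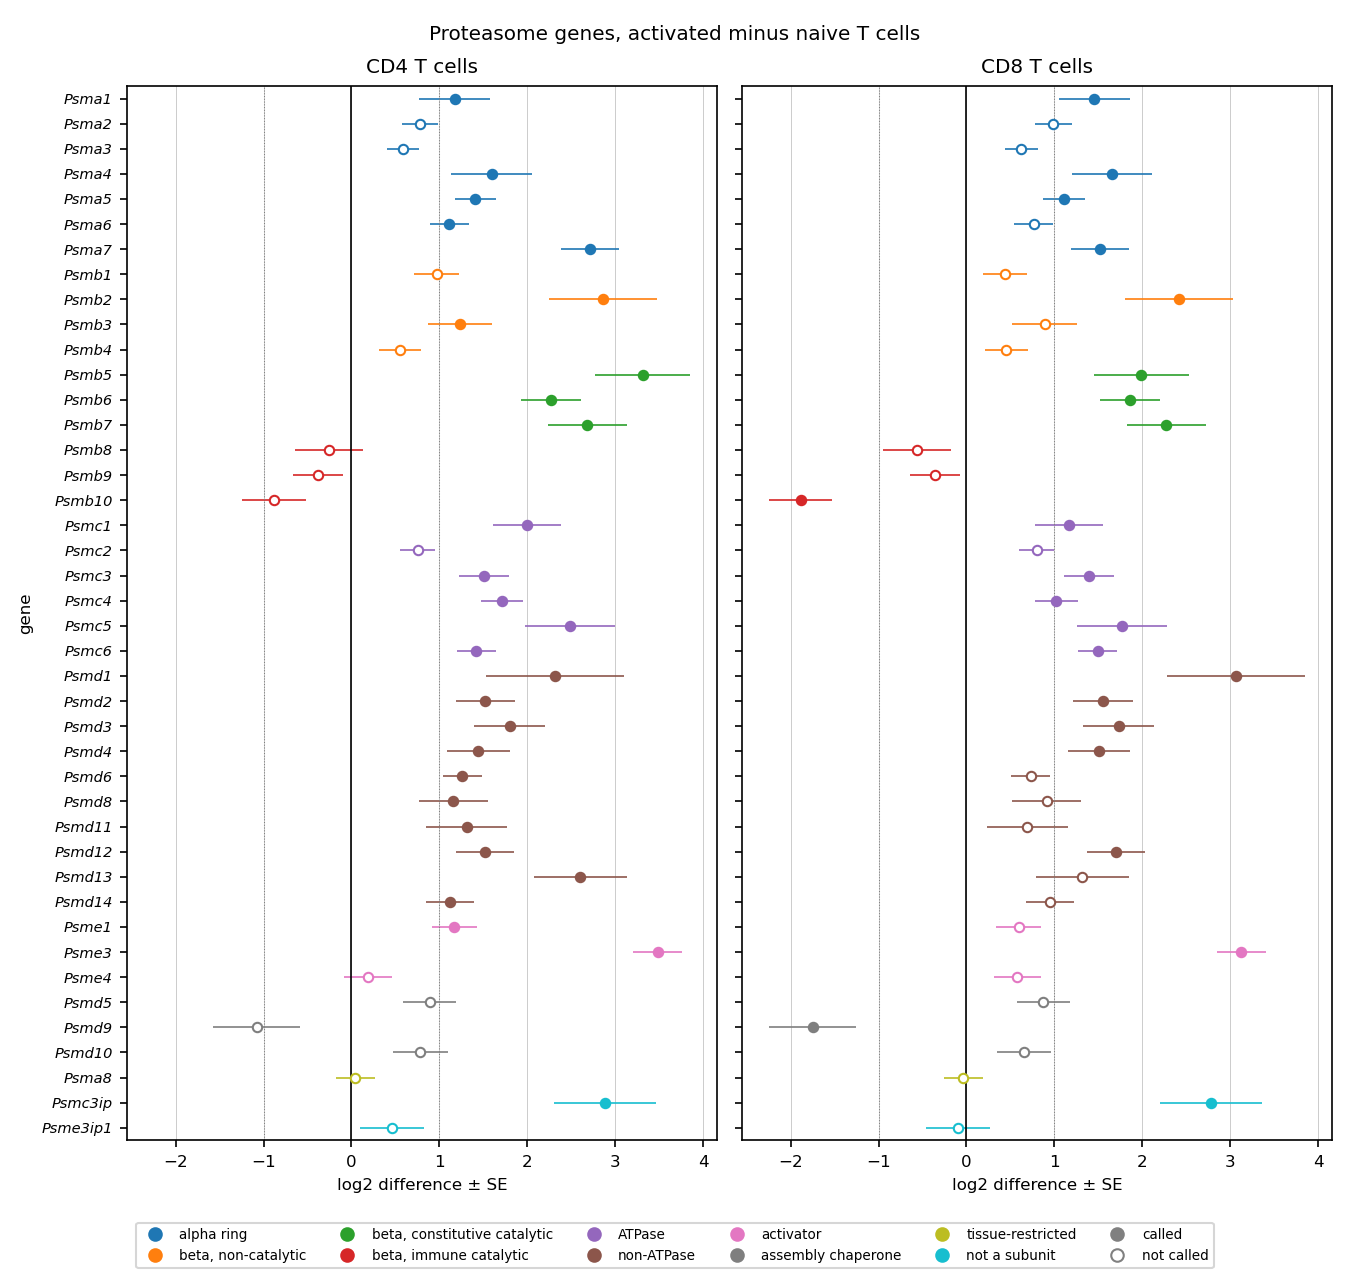
Log2 difference of activated minus naive T cells for the 42 members, for CD4 (left) and CD8 (right) T cells. Points are fitted differences with SE, filled where called, and colours are roles. Most points lie right of 0, while Psmb8, Psmb9, Psmb10 and Psmd9 lie left of it in both panels.

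Nucleated erythrocytes were compared with the mean of the other 9 cell types. In them the immune subunits fell furthest of all members: Psmb8 by 6.0 ± 0.29 (limma adjusted p = 9.28e-10), Psmb9 by 5.04 ± 0.21 (adjusted p = 2.36e-10) and Psmb10 by 2.75 ± 0.27 (adjusted p = 8.78e-07). Their arrays did not overlap with those of any other type. A second Psmb8 probe set read 4.78 and 4.72 in nucleated erythrocytes against 6.95 to 10.26 elsewhere. All of these erythrocyte values lie near the limit for low values, so the differences are those of the log2 values as deposited and no fold is given.

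Of the 42 members 8 were called lower and 6 higher in nucleated erythrocytes, where 36.7% and 18.5% of all genes tested were called. Neither count makes up a larger share of the members than that. Psme1 read 9.61 and 9.13 against 10.13 to 13.20 elsewhere and fell by 2.41 ± 0.19 (limma adjusted p = 1.05e-07). Psmb5 was 1.12 ± 0.40 below that mean (limma adjusted p = 0.0246), a call that was lost in 5 alternatives, among them when the second erythrocyte array was left out. Against single types, Psmb5 in nucleated erythrocytes was called lower only than in naive CD8 T cells and both activated T cell groups. It averaged 8.12 in them, beside 8.17 in naive CD4 T cells. Psma4 fell by 1.57 ± 0.34 (adjusted p = 0.00111). Psmb3 (-2.25) and Psma7 (-1.25) complete the 8 and are named after their values were seen. None of the 6 ATPases was called, with differences from -0.93 to 0.78.

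The genes that were higher in nucleated erythrocytes held activators and chaperones. Psme3 read 12.07 and 12.30 in nucleated erythrocytes against 6.70 to 11.75 elsewhere and rose by 3.26 ± 0.21 (9.59-fold, limma adjusted p = 1.43e-08). Psme4 read 12.53 and 12.50 against 10.51 to 12.05 elsewhere and rose by 1.15 ± 0.20 (adjusted p = 1.87e-04), which was 0.66 and not called with the mean over its probe sets. The erythrocyte arrays were above all other arrays for both, so that Psme3 and Psme4 ran opposite to Psme1.
Psmd5 rose by 2.17 ± 0.22 (adjusted p = 1.55e-06), with 10.53 and 10.21 in nucleated erythrocytes against 6.93 to 9.45 elsewhere. Psmd9, whose probe sets disagreed in T cells, rose by 1.93 ± 0.37 (adjusted p = 3.96e-04). Psmd1 rose by 2.39 ± 0.59 (adjusted p = 0.00257), with 11.07 and 9.65 in nucleated erythrocytes, and the call was lost without the first of these arrays (1.68). Psmc3ip rose by 2.51 ± 0.43 (adjusted p = 1.63e-04).

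Beside these values, the 7 granulocyte markers were at a mean of 10.97 and 12.16 in the erythrocyte arrays, against 13.58 and 13.74 in granulocytes. Granulocytes themselves read 9.93 and 10.29 for Psmb8 and 10.33 and 10.71 for Psmb9, far above the erythrocyte arrays. Conversely, 5 erythroid markers were at a mean of 11.78 and 11.90 in nucleated erythrocytes and 5.82 and 7.58 in granulocytes. The part of other cells, platelets included, in the erythrocyte and LT-HSC differences was not tested. In bulk samples, fewer cells of a type and less RNA per cell cannot be told apart.

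Monocytes had the lowest median of the core genes. Against the other 9 types, 29 of 42 members were called lower and 0 higher (38 had an unadjusted p under 0.05, limma), where 34.4% of all genes tested were called lower and 18.0% higher. The median difference was -1.35 for the members and -0.49 for all genes. The ATPases were called lower in 6 of 6, the non-catalytic beta subunits in 4 of 4, the alpha ring in 5 of 7, the non-ATPases in 7 of 10, the constitutive catalytic subunits in 2 of 3 and the activators in 2 of 3. Of the immune subunits only Psmb10 was called, 1.19 ± 0.27 lower (adjusted p = 0.00145), and this call was lost with quantile normalization (-0.79).

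The largest of these differences were those of Psmd1 (-3.48 ± 0.59, limma adjusted p = 1.49e-04), the ATPase Psmc5 (-3.19 ± 0.38, adjusted p = 7.34e-06), Psme3 (-2.80 ± 0.21, adjusted p = 9.17e-08) and the alpha subunit Psma4 (-2.76 ± 0.34, adjusted p = 9.66e-06). The monocyte arrays were far apart for several of them. Psmd1 read 3.41 and 6.75 in monocytes against 5.88 to 11.07 elsewhere, and Psmc5 read 4.25 and 6.47 against 7.14 to 10.40 elsewhere. Psme3 read 6.76 and 6.70, close together and below all other arrays.
Psmb6 fell by 2.28 ± 0.25 (adjusted p = 3.57e-06) and Psmb7 by 1.44 ± 0.34 (adjusted p = 0.00195), and the call of Psmb7 was lost without the first monocyte array (-1.05). Psmb5 differed by -0.97 ± 0.40, past the p threshold (adjusted p = 0.0477) but short of the 2-fold threshold. In contrast Psmb8 differed by -0.17 ± 0.29 (adjusted p = 0.612) and Psmb9 by 0.67 ± 0.21 (adjusted p = 0.0125, short of 2-fold). Psmb9 read 10.93 and 10.48 in monocytes. Granulocyte markers were also raised in the monocyte arrays (8.66 and 8.84), and their part was not tested. When each of the 20 arrays was left out in turn, 27 to 30 members were called lower.

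**Figure D5:**
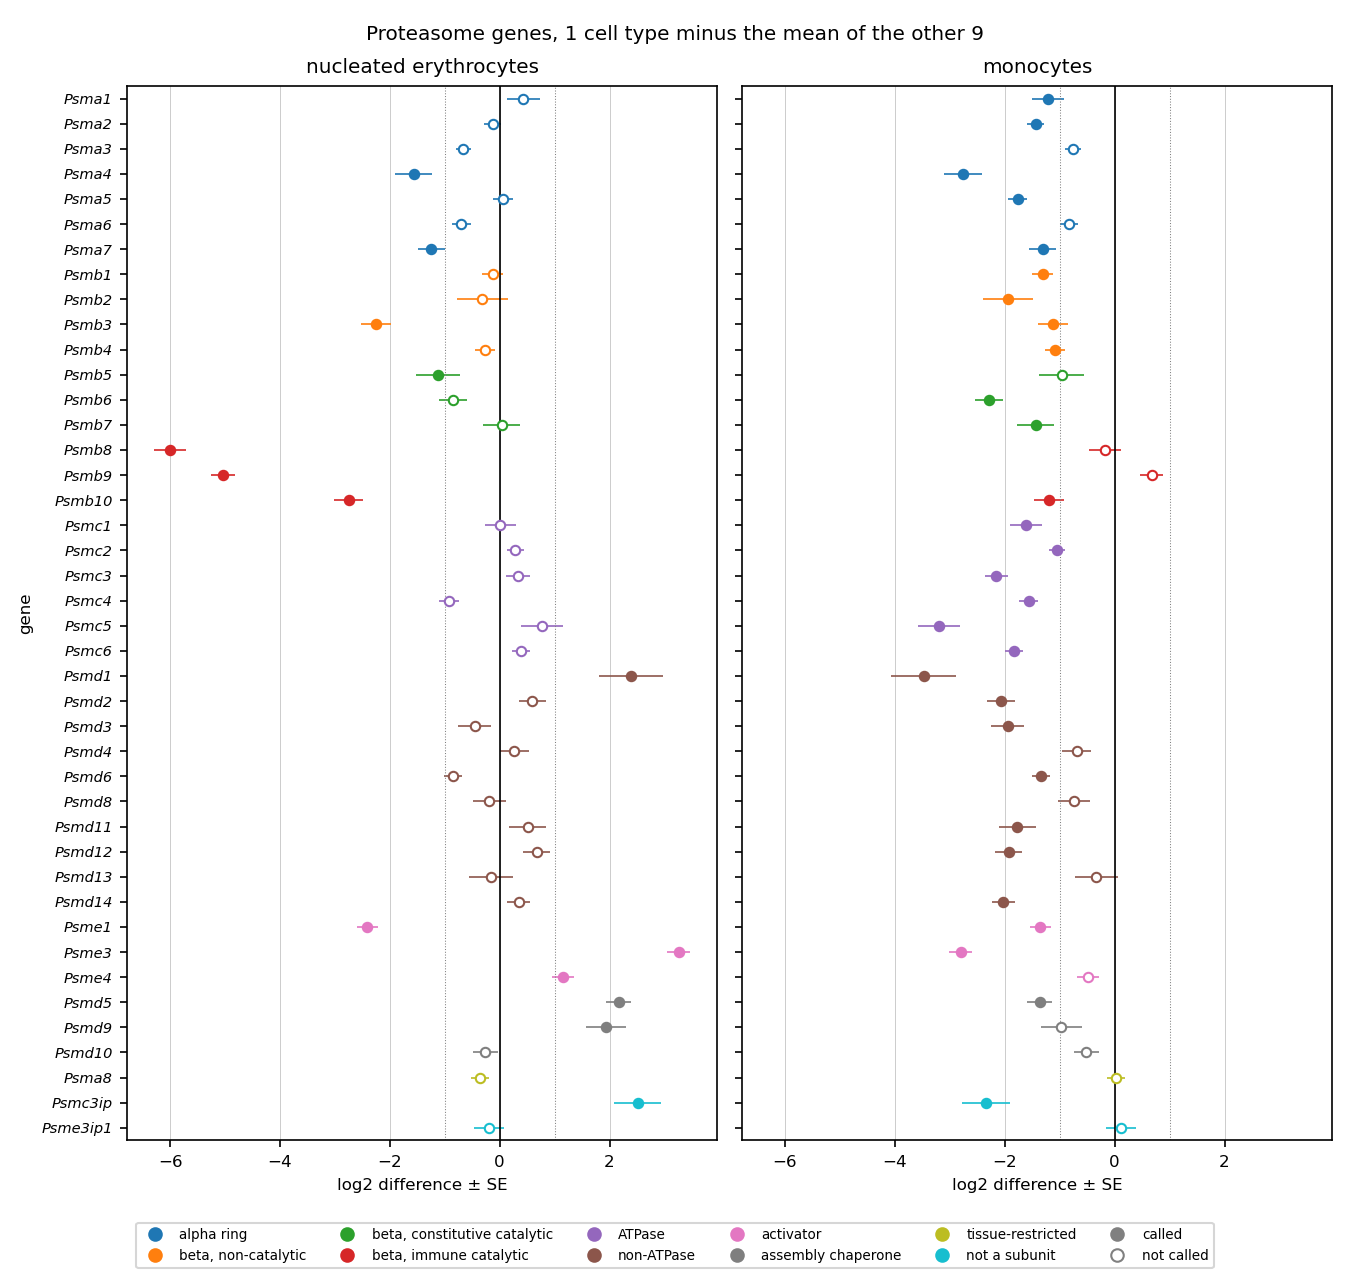
Log2 difference of nucleated erythrocytes (left) and monocytes (right) minus the mean of the other 9 cell types for the 42 members. Points are fitted differences with SE, filled where called, and colours are roles. In nucleated erythrocytes the immune subunits lie between -6.0 and -2.75, and in monocytes most other roles lie left of 0 while Psmb8 and Psmb9 lie near it.

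In LT-HSC 14 of 42 members were called lower and 2 higher, where 21.5% and 18.4% of all genes tested were called, with a median of -0.86 for the members and -0.20 for all genes. The immune subunits were called lower in 3 of 3: Psmb9 by 1.79 ± 0.21 (limma adjusted p = 1.16e-05), Psmb8 by 1.29 ± 0.29 (adjusted p = 0.00214) and Psmb10 by 1.01 ± 0.27 (adjusted p = 0.00621). The call of Psmb8 was lost without the second LT-HSC array (-0.66), and that of Psmb10 when any of 6 arrays was left out (-1.0 to -0.83). Of the constitutive subunits Psmb7 fell by 2.08 ± 0.34 (limma adjusted p = 1.85e-04) and Psmb6 differed by -0.11 ± 0.25. Psmb5 was 1.64 ± 0.40 below the mean of the other types (limma adjusted p = 0.00372), a call lost without the second LT-HSC array (-1.17). Against single types, Psmb5 in LT-HSC was called lower only than in naive CD8 T cells and both activated T cell groups. No member of the alpha ring (0 of 7) and no ATPase (0 of 6) was called lower, with differences of -0.93 to -0.002.

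The chaperone Psmd10, also known as gankyrin, had the largest fall in LT-HSC. It read 5.70 and 4.98 in LT-HSC against 7.20 to 9.05 in all other arrays, a difference of -2.75 ± 0.23 (limma adjusted p = 4.33e-07). Psmd13, a non-ATPase, read 5.88 and 5.37 in LT-HSC against 5.64 to 9.64 elsewhere and fell by 2.14 ± 0.39 (adjusted p = 5.00e-04). Psme3 was 1.32 ± 0.21 below the mean of the other types (limma adjusted p = 1.42e-04), or 0.65 without a call with the mean over its probe sets. That reference holds activated CD4 (11.57) and CD8 T cells (11.71) and nucleated erythrocytes (12.19). Psme3 averaged 8.06 in LT-HSC, beside 8.08 in naive CD4 T cells, 8.11 in NK cells and 8.58 in naive CD8 T cells. Granulocytes averaged 8.73, B cells 8.76 and monocytes 6.73, so LT-HSC were not the lowest type.
Psma8, a subunit known from testis, read 6.33 and 5.87 in LT-HSC and between 2.93 and 3.72 in all other arrays. It passed the filter on low values only through the LT-HSC arrays, so its call (3.01 ± 0.17) was given by that filter and its level is a description. The other higher call was Psmd9 (1.02 ± 0.37, adjusted p = 0.032), which was lost in 10 alternatives. Psmb11, the thymus-restricted subunit, was flat at 2.54 to 2.63 in all arrays.

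NK cells and B cells differed from the other types in few members. In B cells 2 members were called higher and 0 lower (8 had an unadjusted p under 0.05, limma), where 16.4% and 11.3% of all genes tested were called. They were Psmb10 (1.72 ± 0.27, adjusted p = 2.34e-04) and Psmb8 (1.17 ± 0.29, adjusted p = 0.00604), while Psmb9 differed by 0.80 ± 0.21 (adjusted p = 0.00896, short of 2-fold). The Psmb8 call in B cells was lost without the first B cell array (0.90) and with the mean over its probe sets (0.84). In NK cells 1 was called higher and 2 lower, where 16.1% and 11.6% of all genes were called. Psmb10 was higher in NK cells (1.46 ± 0.27, adjusted p = 8.01e-04), and Psme3 (-1.27 ± 0.21, adjusted p = 3.37e-04) and Psmc3ip (-1.73 ± 0.43, adjusted p = 0.00624) were lower. The lower call of Psmc3ip in NK cells was lost without the first NK array (-1.10) and on its more specific probe set (-0.48). That of Psme3 was lost with the mean over its probe sets (-0.73). Psme3 averaged 8.11 in NK cells, level with LT-HSC (8.06) and naive CD4 T cells (8.08). Its reference mean holds the high values of activated T cells and nucleated erythrocytes.

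In granulocytes 9 members were called lower and 0 higher (23 had an unadjusted p under 0.05, limma), where 26.4% and 21.2% of all genes tested were called. The largest were Psmc3ip (-2.08 ± 0.43, adjusted p = 9.32e-04), Psmd9 (-1.79 ± 0.37, adjusted p = 8.96e-04), Psmd3 (-1.77 ± 0.30, adjusted p = 1.93e-04) and Psmb10 (-1.20 ± 0.27, adjusted p = 0.0016). With the mean over probe sets 5 were called lower, and Psmd9 was not among them (-0.78). On its more specific probe set Psmc3ip was not called in granulocytes (-0.42). Psmb8 (-0.48 ± 0.29) and Psmb9 (0.47 ± 0.21) were not called in granulocytes. The difference between the immune subunits was not tested.

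Other genes of the pathway, a list of 30 that is separate from the members, were set beside them. Most are assembly factors, shuttle factors, ubiquitin enzymes and regulators. The list also holds Sem1, a subunit whose symbol falls outside the rule and which is not counted among the members. Of the 30 genes, 23 were tested. In activated CD4 T cells 13 were called higher and 1 lower (median 1.25), where 14.9% and 18.2% of all genes tested were called. In activated CD8 T cells 12 were called higher and 0 lower (median 1.19), against 14.4% and 15.7% of all genes. Psmg3, a chaperone of the alpha ring, had the largest difference of the list in both lineages, with 2.92 ± 0.46 in CD4 and 3.65 ± 0.46 in CD8 T cells. Next came Pomp, the maturation factor of the beta ring, in CD4 T cells (2.43 ± 0.33) and Nploc4, a cofactor of the unfolding ATPase Vcp, in CD8 T cells (2.81 ± 0.38). The lower gene was Nfe2l2, which encodes NRF2, at -1.20 ± 0.27 in CD4 T cells (limma, adjusted p under 0.05 for each).

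In monocytes 14 of the 23 were called lower, where 34.4% of all genes tested were, led by the alpha ring chaperone Psmg2 (-3.84 ± 0.43) and the inhibitor Psmf1 (-3.66 ± 0.45), and Nfe2l2 was higher (1.96 ± 0.20). In nucleated erythrocytes 4 of the 23 were called higher and 6 lower, where 18.5% and 36.7% of all genes tested were called, so neither count exceeds the share of all genes. Psmf1 averaged 12.26 in them against 8.15 over the other types, a rise of 4.11 ± 0.45 (limma adjusted p = 2.68e-06), and the deubiquitinase Usp14 rose by 1.31 ± 0.19. The shuttle factor Ubqln4 (-1.73 ± 0.30) and the chaperone Psmg1 (-1.67 ± 0.40) fell. In LT-HSC, where 18.4% of all genes tested were called higher and 21.5% lower, 3 of the 23 were called higher, with Ecpas (1.72 ± 0.26) and Ubqln2 (1.72 ± 0.24) in front, and 6 lower, with Psmf1 (-1.78 ± 0.45) and Psmg3 (-1.72 ± 0.34) in front.
In granulocytes 8 of the 23 were called lower and 2 higher, where 26.4% and 21.2% of all genes tested were called, with Psmg2 (-2.82 ± 0.43) and Ubqln4 (-2.29 ± 0.30) lowest and Nfe2l2 (2.20 ± 0.20) and Sem1 (1.30 ± 0.20) highest. NK cells had 0 calls in the list.

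The MHC class I list held 14 genes of antigen processing and its regulation, of which 13 were tested. In nucleated erythrocytes 8 were called lower and 0 higher, with a median of -1.95, where 36.7% of all genes tested were called lower. The regulators Nlrc5 (-5.64 ± 0.22, limma adjusted p = 1.27e-10) and Irf1 (-5.40 ± 0.31, adjusted p = 5.69e-09) fell furthest, and Tap1 fell by 4.52 ± 0.34 (adjusted p = 6.85e-08). In NK cells 6 were called higher, against 16.1% of all genes, led by Nlrc5 (1.75 ± 0.22) and Tapbpl (1.44 ± 0.32). In monocytes, where 18.0% of all genes tested were called higher and 34.4% lower, 3 were called higher, among them Irf1 (2.24 ± 0.31) and H2-D1 (1.24 ± 0.26), and 4 lower, among them the peptidase Erap1 (-5.00 ± 0.31) and the chaperone Canx (-1.66 ± 0.27). In activated T cells the calls were Calr, an endoplasmic reticulum chaperone, in both lineages (1.93 ± 0.25 in CD4 and 1.20 ± 0.25 in CD8 T cells) and Canx in CD4 T cells (1.09 ± 0.37).

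The genes whose profile was most like that of the immune subunits were named by the highest Pearson correlation over the 10 cell type means with the mean of Psmb8, Psmb9 and Psmb10. Only tested genes that are not members were ranked. Tap1, the transporter that shares its upstream bases with Psmb9, came first at 0.989, followed by Mpnd (0.988), Rnf170 (0.975), Samd10 (0.974) and Igsf8 (0.969). The means of Samd10 (4.06 to 5.75) and Igsf8 (4.90 to 5.79) lay near the limit for low values in all types, which a correlation does not show. Tap1 averaged 11.26 in naive CD8 T cells and 5.67 in nucleated erythrocytes. All 10 genes nearest to this profile had their lowest mean in nucleated erythrocytes. So did the profile by which they were chosen, so this is no separate observation. The profile of the alpha and constitutive beta subunits (Psma1 to Psma7 and Psmb1 to Psmb7) was most like those of the ribosome biogenesis genes Bysl (0.985) and Ebna1bp2 (0.978), followed by Lzic (0.978), Guk1 (0.976) and Fxr1 (0.976), and Pomp came ninth at 0.972. These correlations over 10 points that share arrays are descriptions with no test.

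Other probe sets of the members gave a check on these differences. Among 27 other member probe sets that passed the filter, the difference had the sign of the probe set used in 20 for CD4 activation, 21 for CD8 activation, 23 for monocytes, 22 for nucleated erythrocytes, 20 for B cells and 19 for NK cells. It did so in only 18 for granulocytes, 16 for LT-HSC and 14 for the CD8 minus CD4 activation difference. Where the probe set used was itself called, 1 other was called in the opposite direction, a probe set of Psmd9 in CD8 activation. Opposite calls beside an uncalled probe set were not counted. Of the 70 probe sets tested, 1 was called higher in monocytes, where 0 members were. Psmb5, Psmb6, Psmb7, Psmb9, Psmb10, Psme1 and Psmd1 had 1 probe set each, so that their values rest on it.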

How the data were processed

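The deposited values are log2 expression values that the authors made with GCRMA, per the submitters' processing notes, for 45101 probe sets in 20 arrays. The GCRMA version is not given in the sources used here. Gene names came from the platform annotation, which gave 1 symbol for 34945 probe sets and several for 932. Where a gene had several probe sets, the one with the highest mean stood for it. Genes needed a log2 value above 5 in 2 or more arrays, which kept 9810 of 18193. The cell type means were fitted with limma (version 3.58.1, R 4.3.3, lmFit followed by eBayes) to the 20 arrays together, leaving 10 residual degrees of freedom, with no further normalization. P-values are two-sided, with Benjamini-Hochberg adjustment across those 9810 genes. Calls required both an adjusted p below 0.05 and a difference of 1 or more on the log2 scale (2-fold). The fit was tested on simulated data for the CD4 activation comparison, with 50 changed genes of each size. It called 52% of log2 differences of 1.5, 76% of 2, 86% of 3 and 100% of 4, with 17 false calls. A gene that was not called can therefore still differ. The number of arrays limits the precision.

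The members, the gene lists and the promoter motifs were chosen with earlier results of these data known. Named in the text were the catalytic subunits, activators, tissue-restricted genes and non-subunits, up to 4 called genes per side and comparison, the extremes of range per role, up to 2 called genes per side of each list, and the 10 genes nearest to each profile. Groups come from sample titles, and for 1 naive CD8 array, whose title reads CD48+, from its source name. Replicate numbers were not used to pair the samples in the main fit. The deviations of same-numbered arrays correlated between -0.256 and 0.213 over 45 pairs of types, and 9 exceeded 0.1. These correlations cannot exclude a shared source within a number. Both naive T cell arrays numbered 1 carried the Y-linked signal, and both numbered 2 did not. Alternatives were other filters, probe set choices, normalizations and fits, and leaving out each array.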

Additional observations from a re-analysis of the deposited data

How the results depend on the processing

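Counts of called members kept within 1.5 times under most alternatives, and the following did not. In CD4 activation 1 member in place of 0 was called lower with array weights, with only the groups compared, without both naive arrays numbered 1 and, an alternative chosen after seeing the data, without the monocyte group. In CD8 activation 1 in place of 2 was called lower with the mean over probe sets and without both naive arrays numbered 1. In LT-HSC 1 in place of 2 was called higher with no filter, a stricter filter, the mean over probe sets, quantile normalization or without the monocyte group. In NK cells 2 in place of 1 were called higher with arrays centred on their medians, and 1 in place of 2 lower with the mean over probe sets, with more specific probe sets, or without the non-subunits (chosen after seeing the members). In B cells 1 in place of 2 was called higher with the mean over probe sets. In monocytes 1 in place of 0 was called higher when every probe set was tested, and in granulocytes 1 in place of 0 with array weights. Granulocytes had 5 in place of 9 lower with the mean over probe sets, which also gave a range of 4.89 in place of 5.16 for the immune minus constitutive difference and turned Psmd9 in CD8 activation to 0.02. The causes were not tested.

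Leaving out each array in turn gave 20 to 28 members higher and 0 to 1 lower in CD4 activation, 14 to 21 and 1 to 2 in CD8 activation, 1 to 2 and 11 to 17 in LT-HSC, 1 to 2 and 1 to 2 in NK cells, 1 to 3 and 0 to 0 in B cells, 0 to 0 and 27 to 30 in monocytes, 0 to 1 and 7 to 9 in granulocytes and 5 to 6 and 6 to 11 in nucleated erythrocytes. The activation difference between lineages stayed at 0, the F test gave 41 to 42, and the range of the immune minus constitutive difference was 4.83 to 5.50. With the replicate number as a block, 28 and 20 members were called higher in CD4 and CD8 activation and 8 lower in granulocytes, and no other count changed. Over 132 named pairs of gene and comparison and 4060 alternative values, 51 lost a call, 13 gained one and 1 reversed. Probe sets near a log2 value of 5 limit what can be said of Psma8, Psmb11 and Psmd7, and of the immune subunits in nucleated erythrocytes. The same limit holds for Psmd10 (5.70 and 4.98) and Psmd13 (5.88 and 5.37) in LT-HSC. It also holds for Psmd1 (3.41), Psmc5 (4.25) and Psma4 (5.47) in the first monocyte array.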
